A study of Mus musculus with 12 samples.

Results

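Scd1, Acly and Elovl1 were the genes of fatty acid synthesis, elongation and desaturation that could be followed by name in hippocampus and cerebellum of Ercc1-/- mice. They were taken as the genes of a pathway list of 31 that carry a name in the deposited files. Each is named there for 1 probe set, so 3 of the 486 genes named and 3 of the 45037 probe sets are described. The files name a probe set only where the authors had selected it on these same arrays. Any further probe sets of these genes on the array could therefore not be identified or compared. Scd1 and Acly were in the authors' hippocampus list and Elovl1 was in their cerebellum list. The values of Scd1 and Acly in hippocampus, and of Elovl1 in cerebellum, are therefore a description of how the genes were chosen. The other region of each gene was not the one for which the authors listed it. The series' design text nevertheless describes both regions as taken from the same 3 Ercc1-/- and 3 WT mice. The 3 genes were also taken up here with earlier results of these data known, so neither region was unseen.

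The study profiled total RNA of whole hippocampus and whole cerebellum on Affymetrix Mouse Genome 430_2.0 arrays. The 4 groups of 3 arrays each were Ercc1-/- (KO) and wild type littermates (WT), for each region. The background of all groups was FVB C57BL/6 crosses, tissue was taken at postnatal day 21, and the labels name no treatment. Ercc1 is a subunit of a DNA repair nuclease, and the labels name no Cre line or cell type to which its loss was limited. Whether a replicate number names a mouse is not given, so p-values measure only the spread between these arrays.

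Fatty acids are made in the cytosol from acetyl-CoA, lengthened at the endoplasmic reticulum by elongases, and given double bonds there by desaturases. In brain the long saturated and monounsaturated products enter sphingolipids, phospholipids and above all the myelin sheath that oligodendrocytes build in the weeks after birth. Many genes of the pathway are known targets of the SREBP transcription factors, which are held back by Insig proteins when sterols are plentiful.

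All 3 genes had lower mean intensity in KO than in WT hippocampus, and higher mean intensity in KO than in WT cerebellum. The KO mean differed from the WT mean by between -27.6% and -16.7% in hippocampus, and by between 10.7% and 30.5% in cerebellum. Of all tested probe sets, 47.4% had a log2 change below 0 in hippocampus and 45.0% one above 0 in cerebellum. None of these differences passed limma's test at an adjusted p of 0.05 over all probe sets of the region. At that threshold limma called 0 of 27022 probe sets in hippocampus and 0 in cerebellum in either direction (0.0%), whereas 1003 (3.71%) and 1169 (4.33%) had an unadjusted p under 0.05. The opposite signs in the 2 regions were shared by 4673 of the 23283 probe sets tested in both, which is 20.1%. For each of the 3 genes, however, the sign in the region where it was chosen was fixed by that choice. Only the sign in the other region was free, so the 20.1% is not the share to set beside these genes. Because whole tissue was measured, fewer cells of a type and less RNA per cell cannot be told apart.

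The median intensity of the arrays lay between 154.4 and 168.2, and all 3 genes were brighter than this on every array. Ercc1 had a mean intensity of 60.2 in KO and 195.9 in WT hippocampus, and of 63.6 in KO and 169.6 in WT cerebellum, and every KO array lay below every WT array of its region. The position of this probe set relative to the Ercc1 mutation is not stated. The region labels could not be checked against markers of hippocampal or cerebellar neurons, of which 0 are named in the files. In hippocampus the leading component of the spread within groups held 69.7% of that spread. Along it the arrays KO 1, KO 3 and WT 1 lay above 0 and KO 2, WT 2 and WT 3 below. In cerebellum the leading component held 49.5% of the spread. KO 1, WT 1 and WT 3 lay above 0 there and KO 2, KO 3 and WT 2 below. WT 3 (0.12) and KO 3 (-0.13) of cerebellum were near 0, so these arrays did not form 2 clear sets. This split by sign has arrays of each genotype on both sides, because values were centred within each group. Array KO 1 of cerebellum had a ratio of the 3′ to the 5′ Gapdh control, a sign of RNA quality, of 1.497. The other arrays of that region had 0.999 to 1.203. No such ratio was worked out for the hippocampus arrays, so this sign of RNA quality was not checked there.

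Acly encodes ATP citrate lyase, which splits citrate in the cytosol into the acetyl-CoA used for both fatty acids and cholesterol. Its probe set 1439459_x_at is of a type that may also bind related sequences, as its suffix states. In hippocampus, where it was chosen, its intensity was 2065, 2088 and 1995 on the WT arrays and 1673, 1743 and 1704 on the KO arrays 1, 2 and 3. The groups were apart by 252 and the arrays of each group were close together, with a coefficient of variation of 2.36% in WT and 2.07% in KO. In cerebellum, for which the authors did not list it, the WT arrays gave 1670, 1361 and 1394 and the KO arrays 1670, 1675 and 1555. Here array WT 1 reached the level of the KO arrays, so the groups overlapped.

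The mean intensity of Acly was 2049 ± 48.4 in WT and 1707 ± 35.3 in KO hippocampus (SD, n = 3 each), and the log2 change was -0.26 ± 0.07 (SE). The authors' deposited table gave a signed fold change of -1.2 with an unadjusted p of 0.003722, and 1.2 is the smallest fold size in that list, shared by 14 of its 278 entries. Acly thus stood just inside the fold limit of the list. In cerebellum the means were 1475 ± 169 and 1633 ± 67.8 (SD, n = 3 each), and the log2 change was 0.15 ± 0.10 (SE) with a 95% interval from -0.09 to 0.39. The adjusted p from limma was 0.997 and the exact permutation p was 0.3, so this difference did not pass. Of the probe sets tested in cerebellum, 88.2% had a lower log2 change.

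Elovl1 encodes an elongase that lengthens saturated and monounsaturated fatty acids to the very long chains found in sphingolipids. Its probe set 1456530_x_at carries the same suffix. In cerebellum, where it was chosen, the WT arrays gave 601, 472 and 497 and the KO arrays 737, 637 and 676. The highest WT array lay 35.7 below the lowest KO array. In hippocampus, for which the authors did not list it, the WT arrays gave 966, 1096 and 714 and the KO arrays 758, 642 and 789. The WT arrays spread widely there, with a coefficient of variation of 21.0%, and WT 3 lay below KO 1 and KO 3.

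Mean intensity of Elovl1 was 523.6 ± 68.5 in WT and 683.2 ± 50.1 in KO cerebellum (SD, n = 3 each), and the log2 change was 0.37 ± 0.12 (SE). In the authors' deposited table it stood with a signed fold change of 1.3 and an unadjusted p of 0.035456. In hippocampus the means were 925.0 ± 194 and 729.6 ± 77.5 (SD, n = 3 each), and the log2 change was -0.31 ± 0.17 (SE) with a 95% interval from -0.71 to 0.08. The adjusted p from limma in hippocampus was 0.9999 and the exact permutation p 0.3, so the difference did not pass. Leaving out WT 3 separated the groups and gave a log2 change of -0.48, whereas leaving out WT 2 gave -0.18. Of the probe sets tested in hippocampus, 2.27% had a lower log2 change than Elovl1 with all arrays.

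Scd1 encodes stearoyl-CoA desaturase, which places a double bond in saturated fatty acids and so makes oleate and palmitoleate. Mice have close relatives of the gene, and which of them its probe set 1415964_at could bind was not analysed here. In hippocampus, where it was chosen, the WT arrays gave 2260, 2597 and 2761 and the KO arrays 1734, 1756 and 2028, with 232 between the groups. In cerebellum, for which the authors did not list it, the WT arrays gave 1754, 1601 and 1597 and the KO arrays 1793, 2267 and 2095. Every KO array of cerebellum lay above every WT array, but KO 1 exceeded WT 1 by only 39.2.

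The mean intensity of Scd1 was 2539 ± 255 in WT and 1840 ± 164 in KO hippocampus (SD, n = 3 each), and the log2 change was -0.46 ± 0.11 (SE). The authors' deposited table gave -1.38 with an unadjusted p of 0.026253. In cerebellum the means were 1651 ± 89.5 and 2052 ± 240 (SD, n = 3 each), and the log2 change was 0.30 ± 0.11 (SE) with a 95% interval from 0.06 to 0.55. The adjusted p from limma was 0.997 and the exact permutation p 0.1, the smallest that 3 against 3 arrays allow. The cerebellar groups stayed apart whichever array was left out, with log2 changes between 0.23 without KO 2 and 0.40 without KO 1. Each side of the array split had a genotype with only 1 array, so log2 changes within the sides are given as description only. In cerebellum the log2 change was 0.10 over KO 1, WT 1 and WT 3 and 0.44 over KO 2, KO 3 and WT 2. In hippocampus it was -0.26 over KO 1, KO 3 and WT 1 and -0.60 over the other three. A log2 change below that of Scd1 was measured for 97.2% of the probe sets tested in cerebellum.

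**Figure D1:**
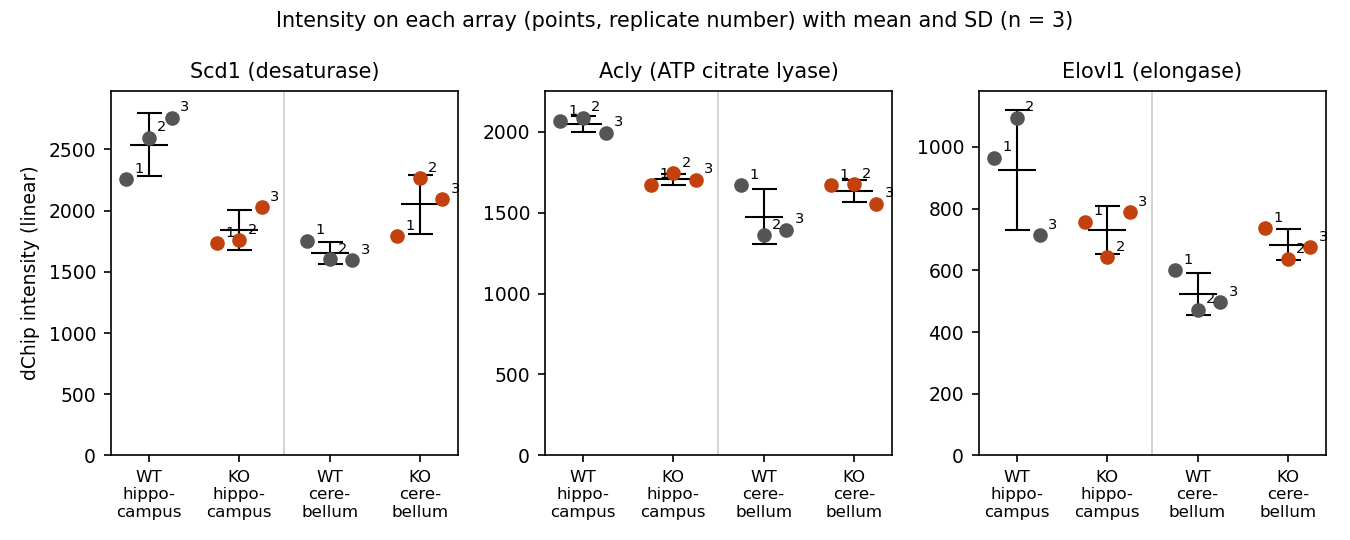
Intensity (linear axis from 0) of Scd1, Acly and Elovl1 on each of the 12 arrays, as points with the replicate number, beside the group mean and SD (n = 3). In hippocampus the KO arrays of Scd1 and Acly sit below all WT arrays, and in cerebellum those of Scd1 and Elovl1 sit above all WT arrays.

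Of the 3 genes, 2 had all KO arrays below all WT arrays in hippocampus, where 4.44% of all tested probe sets did, but both had been chosen there. In cerebellum 2 had all KO arrays above all WT arrays, where 5.3% of the tested probe sets did, and of these Elovl1 had been chosen there and Scd1 had not. Scd1 alone of the 3 had groups without overlap in both regions and in opposite directions. This pattern was found in 43 of the 23283 probe sets tested in both regions, or 0.185%, and Scd1's hippocampal share of it was fixed by the choice.

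The difference between the regional KO effects was fitted over all 12 arrays, taken as independent. As a log2 change in hippocampus minus that in cerebellum it was -0.76 ± 0.15 (SE, 95% interval -1.09 to -0.43) for Scd1, -0.41 ± 0.12 (-0.67 to -0.15) for Acly and -0.68 ± 0.21 (-1.15 to -0.22) for Elovl1. All 3 had an unadjusted p under 0.05, as did 731 probe sets (3.14%). The adjusted p from limma was 0.869 for Scd1 and 0.9999 for Acly and Elovl1, so none passed over all probe sets. The fit was also run with both regions of the same genotype and number treated as 1 mouse. Its adjusted p from limma was 0.697 for Scd1, 0.956 for Acly and 0.9999 for Elovl1. Limma called 1 probe set for a lower effect in hippocampus (0.00429%) and 0 for a higher one. The called probe set was that of Ctss, a lysosomal protease of microglia named here after its values were seen, with -0.88 ± 0.10 and an adjusted p of 0.0306. Because each gene had been chosen for its effect in 1 of the regions, part of each difference was used in choosing it. The middle 90% of tested probe sets had regional differences between -0.32 and 0.28, with a median of 0.01.

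**Figure D2:**
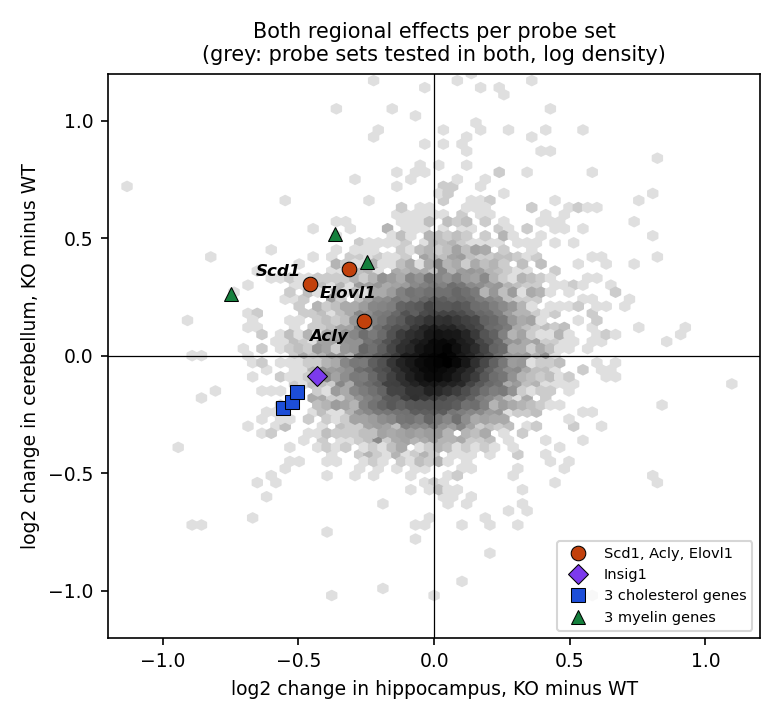
Log2 change (KO minus WT) in hippocampus on the x axis and in cerebellum on the y axis for the 23283 probe sets tested in both, in grey by density on a log scale, of which 20 lie outside the axes. Scd1, Acly and Elovl1 (circles) lie left of 0 and above 0 with the myelin genes Mobp, Mal and Ermn. Insig1 and the 3 cholesterol genes lie left of 0 and below 0.

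The levels of the regions were set side by side without a test, since the regional tables were made separately. In WT all 3 genes were brighter in hippocampus than in cerebellum on every array, with ratios of the means of 1.54 for Scd1, 1.39 for Acly and 1.77 for Elovl1. In WT, 50.3% of the tested probe sets were likewise brighter in hippocampus without overlap, and in KO 55.0% were. In KO these ratios were 0.897, 1.04 and 1.07 and the arrays of the 2 regions overlapped for all 3 genes. The median probe set was higher in hippocampus by 0.32 on the log2 scale in WT and in KO alike. Relative to that median the genes were higher in WT hippocampus by 0.29, 0.15 and 0.45 on the log2 scale for Scd1, Acly and Elovl1, and in KO they stood at -0.47, -0.26 and -0.23.

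By group mean, Scd1 was highest in WT hippocampus, followed by KO cerebellum, KO hippocampus and WT cerebellum, and each of these groups overlapped with the next. For Acly the order was WT hippocampus, KO hippocampus, KO cerebellum and WT cerebellum, of which WT hippocampus alone stood clear of the next group. Elovl1 had the same order as Acly, but there WT cerebellum alone stood clear of the group before it.

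Promoter sequence of the genes is shown because the pathway is known for shared control by SREBP and its cofactors NF-Y and Sp1, whose motifs can be looked for by letter. The 250 bases before each transcription start were taken from RefSeq (GRCm38.p6), for the 2 genes that the promoter table held. Capitals mark the GC box (GGGCGG) and the CCAAT box (CCAAT) on either strand, each line reading 5′ to 3′ on the gene's strand. Acly lies on the minus strand at chr11:100528001-100528250, and the starts of Elovl1 on the plus strand at chr4:118427843-118428092 and chr4:118429451-118429700.
Acly: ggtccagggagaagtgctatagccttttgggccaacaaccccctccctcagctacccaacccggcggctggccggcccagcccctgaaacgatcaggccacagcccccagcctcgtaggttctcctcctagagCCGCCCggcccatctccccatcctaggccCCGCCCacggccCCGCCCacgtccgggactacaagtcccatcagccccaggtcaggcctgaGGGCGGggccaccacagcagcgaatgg
Elovl1, start 1: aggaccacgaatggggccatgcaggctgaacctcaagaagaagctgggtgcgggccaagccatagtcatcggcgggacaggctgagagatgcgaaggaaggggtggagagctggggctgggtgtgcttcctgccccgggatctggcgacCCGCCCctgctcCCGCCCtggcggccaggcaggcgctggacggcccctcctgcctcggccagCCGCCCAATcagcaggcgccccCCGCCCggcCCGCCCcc
Elovl1, start 2: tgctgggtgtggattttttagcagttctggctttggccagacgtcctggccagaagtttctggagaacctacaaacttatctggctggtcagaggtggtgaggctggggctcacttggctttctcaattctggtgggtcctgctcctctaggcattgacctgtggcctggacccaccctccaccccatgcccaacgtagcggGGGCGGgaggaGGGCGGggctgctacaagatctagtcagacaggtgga

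The Acly window held 4 GC boxes and no CCAAT box. The first Elovl1 window held 5 GC boxes and 1 CCAAT box, which overlaps one of them, and the second held 2 GC boxes and 2 E-boxes (CANNTG). Of the 32851 promoter windows of this length in the table, 32.7% held a GC box, 33.9% a CCAAT box and 66.2% an E-box. A sterol regulatory element of the form TCACNCCAC stood in 1.05% of the windows and an LXR element, as a direct repeat of AGGTCA with 4 letters between, in 0.015%. Neither form was in the windows of Acly or Elovl1, which says only that these letters are not there.

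Among the regulators of lipid synthesis, Insig1 is described here. It retains the SREBP complex at the endoplasmic reticulum and is itself an SREBP target. In hippocampus, where it was chosen, its intensity was 670, 560 and 572 on the WT arrays and 452, 424 and 432 on the KO arrays, a log2 change of -0.43 ± 0.10 (SE, n = 3 each). In cerebellum the WT arrays gave 2290, 2096 and 2188 and the KO arrays 2323, 2363 and 1599, a log2 change of -0.09 ± 0.15. The cerebellar groups overlapped, and without KO 3, the lowest array, the log2 change was 0.10.

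From the 25 genes of fatty acid activation, breakdown and complex lipids, Acsl6 and Sptlc2 are named, and both were chosen in hippocampus. Acsl6 attaches coenzyme A to long-chain fatty acids, and Sptlc2 is a subunit of the enzyme that starts sphingolipid synthesis. Acsl6 had a log2 change of -0.27 ± 0.09 (SE) in hippocampus and of -0.18 ± 0.10 in cerebellum, where its KO arrays again lay below its WT arrays, as for 4.17% of all tested probe sets. Sptlc2 had -0.31 ± 0.09 in hippocampus and -0.07 ± 0.09 in cerebellum, where its groups overlapped. Insig1, Acsl6 and Sptlc2 did not pass limma's threshold in either region.

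The cholesterol genes branch from the same acetyl-CoA, and 7 of the 20 listed are named, all from the authors' hippocampus list. Their median log2 change was -0.56 in hippocampus and -0.20 in cerebellum, with 7 and 6 of 7 below 0, against medians of all tested probe sets of 0.01 and -0.02. The 3 fatty acid genes had medians of -0.31 and 0.30. Hmgcs1, which feeds the mevalonate pathway, was the brightest cholesterol gene and had -0.56 ± 0.13 in hippocampus and -0.22 ± 0.08 in cerebellum. Fdft1, which makes squalene, had -0.50 ± 0.11 and -0.16 ± 0.14, and Msmo1, a sterol demethylase, had -0.52 ± 0.13 and -0.20 ± 0.14. The difference between the regional effects was -0.33 ± 0.17 for Hmgcs1, -0.35 ± 0.18 for Fdft1 and -0.33 ± 0.20 for Msmo1, each with the same sign as for Scd1. Whether it differs between the cholesterol genes and the fatty acid genes was not tested.

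**Figure D3:**
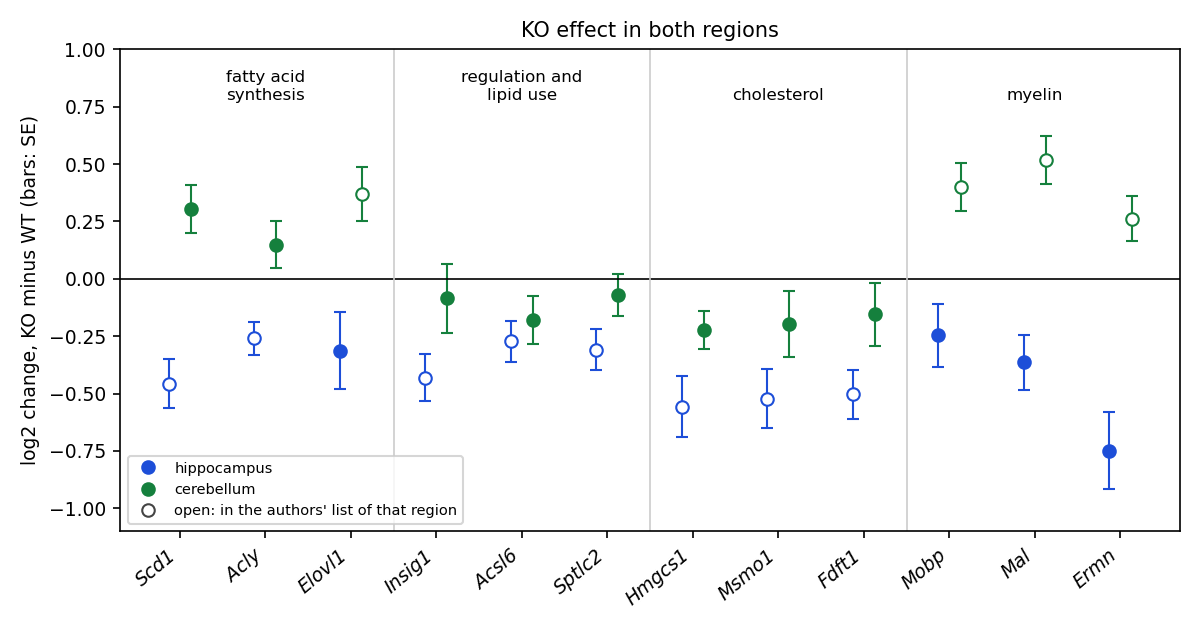
Log2 change (KO minus WT, limma estimate with SE, 3 against 3 arrays) in hippocampus and cerebellum. Shown are the 3 fatty acid genes, the other lipid genes named in the text, and the myelin genes Mobp, Mal and Ermn. Open points belong to the region whose arrays the authors used to list the gene, and only the fatty acid and myelin genes have points on both sides of 0.

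Markers of oligodendrocytes and myelin had log2 changes of the same signs as the fatty acid genes. Of the 12 listed, 4 are named, 1 from the hippocampus list and 3 from the cerebellum list, with a median log2 change of -0.33 in hippocampus and 0.33 in cerebellum. All 4 were below 0 in hippocampus and above 0 in cerebellum, and none passed the threshold. This pair of signs was shared by 20.1% of the probe sets tested in both regions. For each marker the sign in the region of its list was fixed by the choice. The dimmest, Mbp, had -0.29 ± 0.09 and 0.11 ± 0.30 (SE). Its cerebellar groups overlapped, and the log2 change there fell as low as -0.17 with 1 array left out. Mobp, a structural protein of compact myelin, had -0.25 ± 0.14 and 0.40 ± 0.10 (SE). Mal, a myelin lipid raft protein, had -0.36 ± 0.12 and 0.52 ± 0.10, and Ermn, a cytoskeletal protein of oligodendrocytes, had -0.75 ± 0.17 and 0.26 ± 0.10.

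Summed over the 4 markers, intensity ranged from 12273 to 17365 in WT and from 11606 to 12111 in KO hippocampus. In cerebellum the sum ranged from 8262 to 9563 in WT and from 11054 to 13215 in KO, and none of the markers was at 0. Mobp and Mal made up most of the sum, with means of 4928 and 3103 of 8864 in WT cerebellum. Both had been chosen in cerebellum, so the cerebellar sums largely describe that choice. The arrays did not all follow this sum within a group. Array WT 3 of hippocampus had the lowest sum of its group and the lowest Elovl1, but the highest Scd1, and KO 2 of cerebellum had the highest sum and the highest Scd1, but the lowest Elovl1. In WT cerebellum, array 1 was highest in the sum and in all 3 genes. The part of the myelin markers in the results for Scd1, Acly and Elovl1 was not tested.

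**Figure D4:**
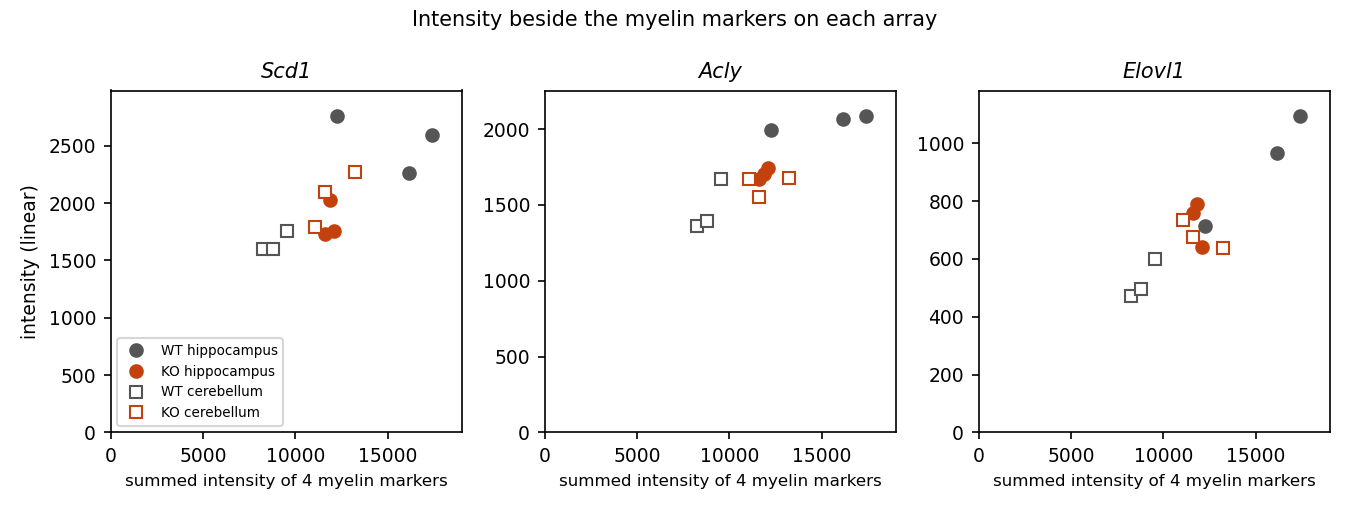
Intensity of Scd1, Acly and Elovl1 (y axis, linear) on each of the 12 arrays against the summed intensity of the 4 named myelin markers on the same array (x axis, linear). WT cerebellum lies at 8262 to 9563 on the x axis, both KO groups at 11054 to 13215, and WT hippocampus at 12273 to 17365. Most of the sum comes from Mobp and Mal, which the authors listed for cerebellum.

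Of the 5 astrocyte markers named, 4 were in the authors' hippocampus list and 4 in their cerebellum list, and of the 6 microglial markers 1 and 6 were, so most of their values describe how they were chosen. Log2 changes were above 0 for 4 of 5 astrocyte and 5 of 6 microglial markers in hippocampus, and for 4 of 5 and 6 of 6 in cerebellum. The summed intensity of 5 astrocyte markers was 17229 to 17553 in WT and 17925 to 18924 in KO hippocampus, and 8826 to 9930 in WT and 11991 to 13184 in KO cerebellum. For 6 microglial markers it was 7009 to 7969 in WT and 8638 to 9006 in KO hippocampus, and 1293 to 1638 in WT and 2680 to 3117 in KO cerebellum. No array of KO overlapped with WT in either sum, but no share over all probe sets was worked out for such sums. The astrocyte markers did not all move alike in hippocampus. Aqp4 had -0.45 ± 0.08 (SE) there, with all KO arrays below all WT arrays, as for 4.44% of tested probe sets. Glul, the brightest, had 0.06 ± 0.06. In neither region did one of these markers pass limma's threshold for KO against WT, whereas Ctss passed for the regional difference, and their part in the results for Scd1, Acly and Elovl1 was not tested. Col1a2, a collagen of fibroblasts, had log2 changes of -0.07 ± 0.28 (SE) in hippocampus and 0.37 ± 0.10 in cerebellum, and Alas2, the heme synthesis enzyme of red cell precursors, had -0.64 ± 0.25 and -0.54 ± 0.14. None of the listed neuronal or endothelial markers is named in the files.

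Named probe sets of other genes were ranked by how closely their log2 values, centred within each region, followed each gene over the 12 arrays, as a root mean square difference. Closest to Scd1 were Ncam1 (0.119), a cell adhesion molecule, Pthlh (0.137), a secreted hormone-like peptide, and Tmem63a (0.140), against a median of 0.276 over 537 named probe sets. For Acly they were Cntn2 (0.0706), an axonal adhesion molecule, Ankib1 (0.0761) and Lsm14b (0.0861), against a median of 0.219. For Elovl1 they were Tmem125 (0.0810), Erbb3 (0.0828), a neuregulin receptor of glia, and Phlda3 (0.0874), a target of p53, against a median of 0.277. Tmem125 had log2 changes of -0.30 in hippocampus and 0.35 in cerebellum, Erbb3 of -0.32 and 0.28, and Ncam1 of -0.28 and 0.33. Acly ranked 7 of 537 in likeness to Scd1, at 0.149, whereas Elovl1 ranked 113, at 0.215. All these probe sets had been selected by the authors for a KO difference, so the measure describes likeness among selected probe sets.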

How the data were processed

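For each region the authors deposited 1 table of dChip intensity, on a linear scale, with a column per array. How dChip corrected background and normalized arrays was not stated in these sources. Their short lists hold gene names, a signed fold change that is treated as a score, and an unadjusted p-value, all made by the authors. Through these lists and RefSeq symbols (GRCm38.p6), 538 of 610 listed probe sets were given 1 gene name, from 486 genes. The members and gene lists were chosen with earlier results of these data known.

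Tests used log2(value + 32), which shrinks the fold change of dim probe sets. The 64 control probe sets were left out, and a probe set was tested where its mean log2 value lay above the region's 40th percentile (27022 per region, 23283 in both). All 3 genes passed this filter in both regions. KO and WT were compared with limma 3.58.1 in R 4.3.3 (lmFit, eBayes with an intensity trend, Benjamini-Hochberg at 0.05), and the regional difference with an interaction term over 12 arrays. Exact permutation tests were two-sided. On simulated data with 200 changed probe sets, 65% of those changed by 1 log2 unit were called in hippocampus, 57% in cerebellum and 64% for the difference, and 7%, 8% and 9% of those changed by 0.5. The simulated noise was independent between probe sets and arrays, whereas the real arrays shared a leading component of spread within groups. These shares may therefore not hold for the real arrays. The number of arrays limits the precision. Where a gene had several named probe sets, the brightest was used. Named were the 3 genes, Ercc1, every named gene of the fatty acid, regulator and fatty acid use lists, up to 3 of the brightest genes of the cholesterol and marker lists, and the 3 closest probe sets to each gene, and 1 result under this rule is not reported here. Alternatives changed the pseudocount, filter, normalization, trend, fit and block, and left out each array in turn. Chosen after seeing the data were values within each side of the split of the arrays of each region and leave-one-out values for the other lipid genes. Mbp, with its leave-one-out value, was also named after its values were seen. Tables were handled with pandas 2.3.3 in Python 3.11.15. Exact tests used NumPy 2.4.6, and the 95% intervals used SciPy 1.17.1. Plots were drawn with matplotlib 3.10.9.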

Additional observations from a re-analysis of the deposited data

Results flagged for a closer look

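The regional difference of Scd1 was singled out because every KO array lay below every WT array in hippocampus and above every WT array in cerebellum. Its log2 change in hippocampus minus that in cerebellum was -0.76. The interaction test in limma gave an adjusted p of 0.869 over 23283 probe sets, so the difference did not pass, and Scd1 had been chosen by the authors for its hippocampal effect.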

How the results depend on the processing

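Scd1, Acly and Elovl1 kept the sign of each regional change under the 13 refits run, and of the regional difference under the 19 run, and none passed the threshold under any of them. The log2 change ranged in hippocampus from -0.54 to -0.39 for Scd1, -0.28 to -0.24 for Acly and -0.48 to -0.18 for Elovl1. In cerebellum it ranged from 0.23 to 0.40 for Scd1, 0.10 to 0.24 for Acly, whose groups no longer overlapped without WT 1, and 0.30 to 0.47 for Elovl1. The regional difference ranged from -0.85 to -0.69 for Scd1, -0.50 to -0.35 for Acly and -0.85 to -0.55 for Elovl1. The lowest adjusted p of any alternative was 0.278, for the regional difference of Scd1.

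Counts of called probe sets over the whole table moved. In 1 fit over all 12 arrays limma called 6 in hippocampus and 34 in cerebellum, against 0 each in the separate fits. With 1 array left out the count ranged from 0 to 5 in hippocampus (5 without WT 2), from 0 to 2 in cerebellum, and from 0 to 2 for the regional difference (2 without WT 2 of cerebellum). For that difference, 1 was called in the main setting, 2 with a pseudocount of 16, 0 without a filter, 0 after quantile normalization and 0 without the intensity trend. The cause was not tested. With the replicate number as a block the adjusted p of Scd1 was 0.978 in hippocampus and 0.967 in cerebellum, and it changed no call of the 3 genes. The numbers were not taken to pair KO with WT arrays, since KO and WT arrays of the same number had deviations that correlated at 0.679, 0.311 and -0.502 in hippocampus and 0.0558, 0.338 and -0.237 in cerebellum. Hippocampus and cerebellum arrays of the same genotype and number correlated at 0.577, 0.537 and -0.273 in KO and -0.0221, 0.126 and -0.191 in WT, so whether a number names a mouse was not settled. Within the sides of the array split the log2 change in hippocampus was -0.29 and -0.22 for Acly and -0.31 and -0.44 for Elovl1, and in cerebellum 0.13 and 0.24 for Acly and 0.41 and 0.45 for Elovl1. Centred within genotype as well, the 3 probe sets closest to Scd1 shared 0 with those above, those of Acly 0 and those of Elovl1 1.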

Other observations

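Besides Scd1, other named genes had KO arrays below all WT arrays in hippocampus and above all WT arrays in cerebellum, and they are named here after their values were seen. Of the 43 probe sets with this pattern, 16 could be named, from 15 genes, and all had been selected by the authors in at least 1 region. Those with a regional difference beyond that of Scd1 were Mal, by both of its probe sets (-1.21 and -0.88 on the log2 scale), Pitpnc1 (-1.05), a phosphatidylinositol transfer protein, Ermn (-1.01) and Cerox1 (-0.98), a long noncoding RNA. Il33, a cytokine that oligodendrocytes and astrocytes can make, had -0.63, with log2 changes of -0.35 in hippocampus and 0.28 in cerebellum. Cyp26b1, which breaks down retinoic acid, had -0.50. None of the 16 passed limma's threshold, with adjusted p-values from 0.869 to 0.9999.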
